A study of Rattus norvegicus with 15 samples.

Results

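A set of 9 G-protein coupled receptors of the pancreatic islet and the adenylate cyclase gene Adcy5 were followed through islets of rats that had lost most of their pancreas. The 10 genes, chosen by name, are Glp1r, Gipr, Gcgr, Ffar1, Chrm3, Sstr2, Sstr3, Adra2a, Galr1 and Adcy5, and all 10 were present among the 28914 genes of the count table. Islets came from 15 Lewis rats, labelled 4-5 weeks old without saying at what point, 10 weeks after surgery. In 10 of them a partial pancreatectomy (Px) had taken out 90% of the gland, a model in which a small remnant must control blood glucose, and 5 had a sham operation (Sham). Average blood glucose, given without a unit, was 416 to 464 in 3 Px rats (higher-glucose Px), 104 to 211 in 7 Px rats (lower-glucose Px) and 88 to 96 in Sham. The titles of all 15 samples carry the mark Inc_YES, which is not explained, and no genetic change is named. Replicates are taken as separate rats from the label numbers, so p-values measure the spread between these libraries.

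These receptors let hormones, nutrients and nerves adjust insulin release to need. The incretin hormones GLP-1 and GIP, and glucagon, bind class B receptors that couple through Gs to adenylate cyclases and raise cAMP, which amplifies insulin secretion when glucose is high. Ffar1 and Chrm3 act through Gq and phospholipase C, whereas the somatostatin, alpha-2 adrenergic and galanin receptors couple to Gi, which holds cyclases back.

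Promoters of 3 members are shown because Glp1r fell and Sstr2 and Adcy5 are the members that were higher in Px. They are the RefSeq sequences in GRCr8, 300 bases each, from 250 before to 50 after the annotated start. Capitals mark matches on either strand to the cAMP response element (CRE, TGACGTCA), its core (TGACG, which also lies inside the full element), the GC box (GGGCGG), the AP-1 site (TGANTCA) and a homeodomain site (TAATTA). Glp1r is chr20:8973143-8973442 on the plus strand, Sstr2 chr10:99163103-99163402 on the plus strand and Adcy5 chr11:79123294-79123593 on the minus strand.
Glp1r: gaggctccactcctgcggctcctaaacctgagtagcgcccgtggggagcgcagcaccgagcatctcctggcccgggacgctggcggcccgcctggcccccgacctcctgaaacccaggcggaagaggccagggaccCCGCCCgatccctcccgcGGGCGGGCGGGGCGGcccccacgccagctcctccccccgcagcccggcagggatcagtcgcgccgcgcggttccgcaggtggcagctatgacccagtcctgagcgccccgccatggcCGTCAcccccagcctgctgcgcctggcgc
Sstr2: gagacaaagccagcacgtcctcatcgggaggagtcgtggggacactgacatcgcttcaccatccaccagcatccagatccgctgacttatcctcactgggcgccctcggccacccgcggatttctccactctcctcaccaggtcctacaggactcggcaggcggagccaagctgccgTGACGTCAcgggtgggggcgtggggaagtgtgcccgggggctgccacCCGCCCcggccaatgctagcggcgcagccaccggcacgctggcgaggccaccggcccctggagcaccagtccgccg
Adcy5: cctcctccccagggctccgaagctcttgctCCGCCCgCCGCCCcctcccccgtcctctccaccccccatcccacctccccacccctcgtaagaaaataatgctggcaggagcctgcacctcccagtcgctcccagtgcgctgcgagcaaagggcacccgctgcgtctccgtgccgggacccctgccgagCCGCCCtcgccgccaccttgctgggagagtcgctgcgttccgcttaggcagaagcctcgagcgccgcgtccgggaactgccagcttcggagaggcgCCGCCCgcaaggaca
The table gave 10 promoters for 9 members (all but Gipr), with 2 for Gcgr. The full CRE was found in 1 of these 10, that of Sstr2, and in 1.83% of 33469 rat promoters of the same length. GC boxes were found in 7 of the 10, against 33.1% of all promoters, with 4 in Glp1r and 4 in Adcy5. The CRE core was in 4 of the 10, against 21.2% of all, while the AP-1 site (7.33% of all) and the homeodomain site (5.36% of all) were in 0. A match describes the letters of the window and is not a binding site.

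Library totals were 19.1 to 33.4 M counts in Px and 12.2 to 18.4 M in Sham (exact two-sided permutation test, p = 0.000666). The summed share of 15 acinar (digestive-enzyme cell) markers was 19% to 46.4% of counts in Px and 0.991% to 14.1% in Sham (exact two-sided permutation test, p = 0.000333), and 14 of the 15 rose by the edgeR test described next. By that test macrophage (9 of 9), fibroblast (7 of 7), endothelial (4 of 5) and duct (4 of 5) markers rose too, and 7 of 8 beta cell markers fell. Alpha (2 of 6), delta (1 of 4) and pancreatic polypeptide (2 of 2) cell markers rose in part or whole, and 0 of them were called lower. The 4 delta markers nevertheless had a median log2 fold change of −0.57, and 3 of them were called lower in lower-glucose Px against Sham. Their summed share was 0.0168% to 0.07% of counts in Px and 0.0848% to 0.132% in Sham, without overlap. As summed shares of counts, Px and Sham overlapped for fibroblast, endothelial (0.0249% to 0.0526% in Px, 0.033% to 0.0483% in Sham) and duct markers (0.0112% to 0.0455% in Px, 0.0146% to 0.0206% in Sham). None of the markers found in the count table was at 0 in all libraries. The libraries also fell into sets that stood apart by the mean log2(CPM + 1) of 17 splicing-related genes, whose gap defines the sets. The first set holds 5 lower-glucose Px and 2 Sham libraries (replicates 23 and 24), and the second set 3 higher-glucose Px, 2 lower-glucose Px (replicates 14 and 16) and 3 Sham libraries. The largest gap in that mean was 0.754 within Px and 1.20 within Sham, against next largest gaps of 0.3 within Px and 0.23 within Sham. The cut was placed separately in Px and Sham, at unlike levels. The mean was 6.39 to 6.79 in first-set and 5.07 to 5.64 in second-set Px, against 7.52 to 7.55 in first-set and 6 to 6.32 in second-set Sham. In Px the acinar share also differed, at 19% to 28.7% in the first set. In the second it was 28.1% to 37.1% in higher-glucose and 41.3% to 46.4% in lower-glucose Px. The labels name no batch for the split, and results that move with it are given below within each set.

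Levels are counts per M reads on TMM-scaled totals (CPM), as mean ± SD, and changes are log2 fold changes ± standard error from edgeR's quasi-likelihood test with Benjamini-Hochberg adjustment over all genes, called at an adjusted p below 0.05. In all Px against Sham, 8 of the 10 members were called, 2 higher and 6 lower. Calls were made for 64.7% of the 15199 genes tested, 34.5% higher and 30.2% lower, so a call by itself does not set a member apart. These were 5242 genes higher and 4596 lower, against 9175 and 715 with scaling by 8 endocrine granule genes and 2667 and 7951 by library totals. The falls were in Glp1r, Gipr, Ffar1, Sstr3, Adra2a and Galr1, and the rises in Sstr2 and Adcy5. Gcgr and Chrm3 did not pass. With the library set as a term 69.4% of genes were called in this comparison, in the first set alone 50.9% and in the second 59.4%. In 5 members the ranges of the Px and Sham libraries did not overlap: Glp1r, Ffar1, Sstr3 and Adra2a on the low side, as in 16.4% of all genes, and Adcy5 on the high side, as in 20.8%. No such share was counted for Px against Sham within a library set or for the glucose groups. Those separations, given below, only describe the values. RNA of whole islets was measured, so fewer cells of a type and less RNA per cell cannot be told apart. Beta cell markers took 3.13% to 9.16% of counts in Px and 10.7% to 23.9% in Sham, and their part in these receptor results was not tested.

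**Figure D1:**
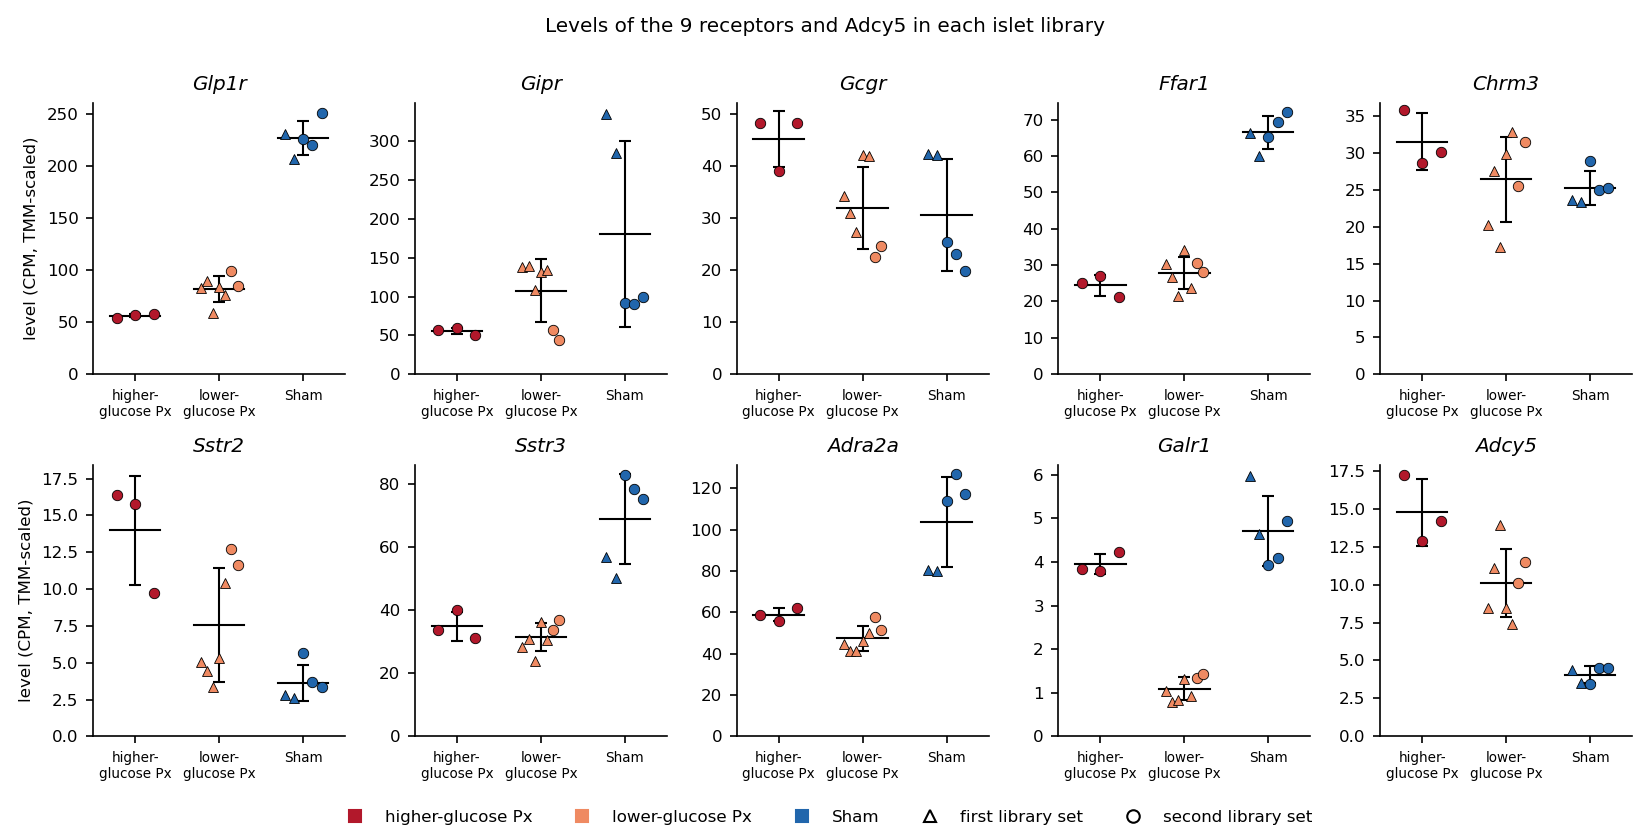
Level of each gene in each library (y axis, CPM on TMM-scaled totals, from 0) in higher-glucose Px (3 libraries), lower-glucose Px (7) and Sham (5); triangles are the first and circles the second library set, and black lines are mean ± SD. Glp1r, Ffar1, Sstr3 and Adra2a are lower in every Px library than in any Sham library, Adcy5 is higher in every Px library, and Gipr splits by library set.

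Among the class B receptors, Glp1r, the GLP-1 receptor (chromosome 20, 9586075 to 9626228 in the count table, whose build is not given), had 54.4, 56.7 and 57.4 CPM in the higher-glucose Px libraries. The lower-glucose Px libraries ran from 58.8 to 99.5 CPM with a median of 83.7. The Sham libraries had 207, 220, 226, 231 and 251 CPM. The 3 groups did not overlap: each higher-glucose value lay below each lower-glucose value, and each of these below Sham. Between the Px groups the margin was narrow, 57.4 against 58.8 CPM, and the share of all genes with this order was not counted. Glp1r averaged 74.4 ± 16.3 CPM in Px (n = 10) and 227 ± 16.4 CPM in Sham (n = 5), a log2 fold change of −1.61 ± 0.13 (adjusted p = 6.78e-08) or 0.328 times the Sham level. The fall was −1.49 ± 0.15 in the first library set and −1.73 ± 0.19 in the second (adjusted p = 0.000652 and 3.8e-05), and stayed between −1.65 and −1.55 when each library was left out in turn.

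Gipr, the GIP receptor (chromosome 1, 80063049 to 80073223), was lower in Px within both library sets, but its level differed more between the sets than between Px and Sham. In the first set it had 108 to 140 CPM in the 5 Px libraries (median 134), and 335 and 285 CPM in the 2 Sham libraries. In the second set it had 56.9, 59.2 and 50.9 CPM in higher-glucose Px, 57.0 and 43.9 CPM in lower-glucose Px, and 92.1, 90.3 and 99.1 CPM in Sham. Px lay below Sham without overlap inside each set, while pooled Px and Sham ranges overlapped, with first-set Px above second-set Sham. The first set had 2.59 times the second set's level in lower-glucose Px and 3.3 times in Sham. Of all genes tested, 4.96% were higher in every first-set library within both Px and Sham, as Gipr was, and 2.47% lower likewise, as Adra2a was. The pooled fold change was −0.97 ± 0.37 (adjusted p = 0.0289). With the library set as a term it was −1.0 ± 0.09 (adjusted p = 1.92e-07), and within the sets −1.26 ± 0.13 in the first and −0.82 ± 0.11 in the second (adjusted p = 0.000644 and 9.67e-05). The pooled call ended without Sham replicate 23 (−0.62, edgeR adjusted p = 0.157) or 24 (−0.74, 0.108), and with endocrine granule scaling (−0.44, 0.37). With an acinar marker score in the model the estimate was 0.99 ± 0.57 (edgeR adjusted p = 0.181). The acinar share did not overlap between Px (19% to 46.4%) and Sham (0.991% to 14.1%). A fit with this score, here or below, therefore cannot separate acinar content from Px.

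**Figure D2:**
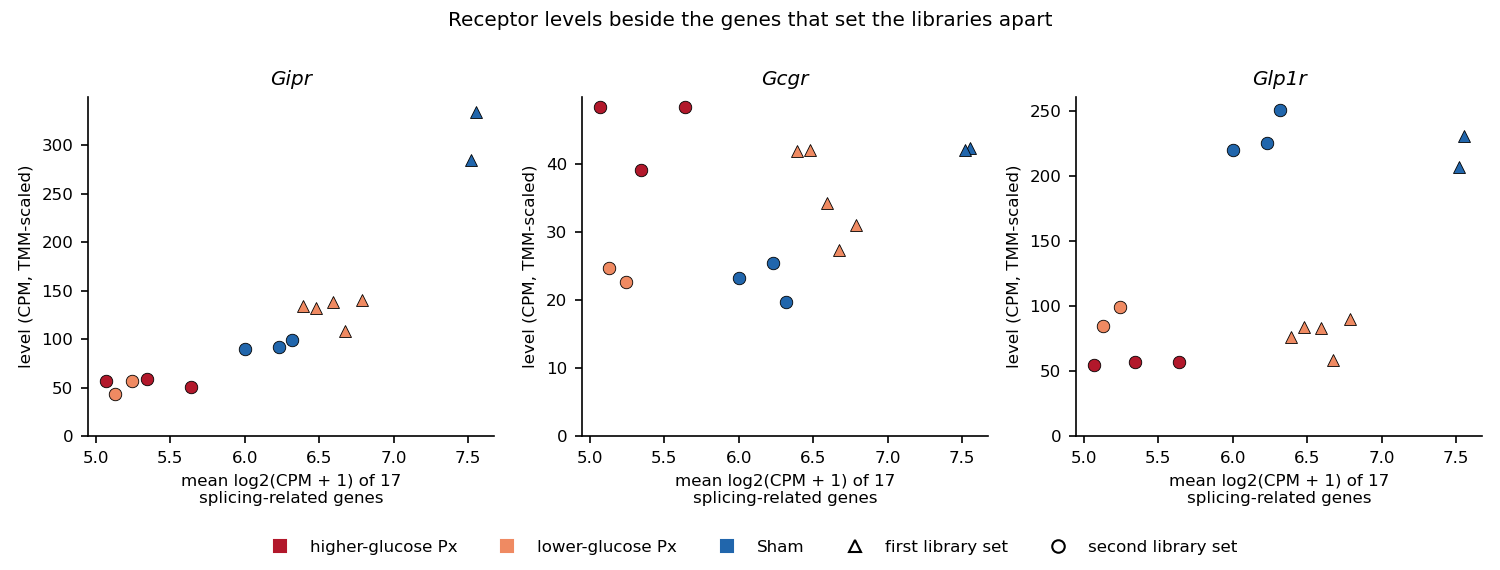
Level of Gipr, Gcgr and Glp1r (y axis, CPM on TMM-scaled totals, from 0) against the mean log2(CPM + 1) of 17 splicing-related genes (x axis, CPM on unscaled library totals) in the 15 libraries; colours are groups, triangles the first and circles the second library set. Gipr is higher in the first set within both Px and Sham, where second-set Sham had 90.3 to 99.1 CPM, whereas Glp1r separates Px from Sham in both sets.

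Gcgr, the glucagon receptor, which lets beta cells respond to glucagon from neighbouring alpha cells (chromosome 10, 109707962 to 109716128), did not pass in all Px against Sham. It averaged 36.0 ± 9.43 CPM in Px and 30.6 ± 10.9 CPM in Sham (0.23 ± 0.21, adjusted p = 0.35). It was called higher with endocrine granule scaling (0.74 ± 0.23, adjusted p = 0.00922) and in the second library set alone (0.67 ± 0.26, 0.0448), and was at −0.46 ± 0.28 by library totals (0.146). The higher-glucose Px libraries had 48.4, 39.1 and 48.4 CPM. The 2 lower-glucose Px libraries of the same set had 22.6 and 24.7 CPM, and its 3 Sham libraries 25.5, 23.2 and 19.8 CPM. Inside the second set the higher-glucose libraries therefore lay above all others, with a log2 fold change of 0.97 ± 0.13 over Sham (adjusted p = 0.000178, where 57% of genes were called) and 0.95 ± 0.15 over lower-glucose Px (adjusted p = 0.0222). In the first set, which has no higher-glucose rat, Gcgr had 27.4 to 42.1 CPM in Px and 42.4 and 42.1 CPM in Sham (−0.27 ± 0.18, adjusted p = 0.232). Pooled over the sets, higher-glucose Px against Sham was 0.56 ± 0.25 (adjusted p = 0.0663), and passed with the library set as a term (0.91 ± 0.15, 0.000131). It also passed without lower-glucose replicate 14 or Sham replicate 23 or 24 (edgeR adjusted p = 0.0476, 0.0264 and 0.0262). With endocrine granule scaling it was at 0.93 ± 0.29 (edgeR adjusted p = 0.0129), and by library totals at −0.48 ± 0.37 (0.251). The median of all genes was 0.47 and −0.96 in those fits. With the acinar score in the model it was at 1.2 ± 0.47 (edgeR adjusted p = 0.0692). Gcgr in higher- against lower-glucose Px was at −0.04 ± 0.35 by library totals (edgeR adjusted p = 0.929), where that median was −0.53.

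The Gq-coupled receptors parted. Ffar1, the receptor for long-chain fatty acids (chromosome 1, 89308475 to 89309379), had 25.1, 27 and 21.3 CPM in higher-glucose Px. Lower-glucose Px ran from 21.4 to 34.1 CPM with a median of 28.1, and Sham had 66.2, 60.0, 65.1, 69.3 and 72.1 CPM. Px and Sham did not overlap, while higher- and lower-glucose Px did. Ffar1 fell by 1.31 ± 0.10 on the log2 scale (adjusted p = 2.98e-08), to 0.404 times the Sham level. The fall was −1.22 ± 0.17 in the first set and −1.39 ± 0.11 in the second. Chrm3, the muscarinic M3 receptor through which acetylcholine from nerves stimulates insulin release (chromosome 17, 63990599 to 63994169), had 28.0 ± 5.63 CPM in Px and 25.3 ± 2.24 CPM in Sham (0.14 ± 0.14, adjusted p = 0.376). Its Px range, 17.3 to 35.9 CPM, enclosed the Sham range of 23.4 to 29.0 CPM, and neither set gave a call (0.11 ± 0.25 in the first, 0.19 ± 0.12 in the second). Its sign depended on the scaling, with a rise of 0.71 ± 0.11 with endocrine granule scaling (adjusted p = 3.26e-05) and a fall of 0.53 ± 0.18 by library totals (adjusted p = 0.0132). Those scalings moved the median of all genes to 0.61 and −0.62 from 0.02, so relative to that median Chrm3 stayed near other genes.

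Of the Gi-coupled receptors, Sstr3, Adra2a and Galr1 fell and Sstr2 rose. Sstr3, a somatostatin receptor (chromosome 7, 119760888 to 119768082), had 33.6, 40.0 and 31.1 CPM in higher-glucose Px, and 24 to 36.8 CPM with a median of 30.9 in lower-glucose Px. Sham had 57.0 and 50.4 CPM in the first set and 83.1, 78.6 and 75.3 CPM in the second. The fall was −1.08 ± 0.12 (adjusted p = 1.27e-06), with −0.85 ± 0.15 in the first set and −1.18 ± 0.10 in the second. Adra2a, the alpha-2A adrenergic receptor, through which noradrenaline restrains insulin release (chromosome 1, 274766283 to 274769081), had 58.8, 55.7 and 61.9 CPM in higher-glucose Px. Lower-glucose Px ran from 41.2 to 57.7 CPM with a median of 45.9, and Sham had 80.6 and 80.1 CPM in the first set and 114, 127 and 117 CPM in the second. Both genes separated Px from Sham without overlap in each set, and Adra2a fell by 1.03 ± 0.12 on the log2 scale (adjusted p = 2.44e-06).

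Sstr2, the somatostatin receptor whose promoter held the full CRE (chromosome 10, 102136283 to 102143434), was higher in Px at low levels, with 51 to 362 counts per library. Higher-glucose Px had 16.4, 15.8 and 9.73 CPM, lower-glucose Px 3.35 to 12.7 CPM with a median of 5.35, and Sham 2.80, 2.58, 5.68, 3.69 and 3.32 CPM. The pooled ranges overlapped, but inside each set every Px library lay above every Sham library. The rise was 1.38 ± 0.37 (adjusted p = 0.00394), with 1.07 ± 0.44 in the first set, which did not pass (adjusted p = 0.0733), and 1.63 ± 0.23 in the second (adjusted p = 0.000191). In lower-glucose Px the first set stood at 0.47 times the level of the second, and in Sham at 0.635 times. The call for lower-glucose Px alone, 1.04 ± 0.34 (adjusted p = 0.0136), ended by library totals (0.43, edgeR adjusted p = 0.134) and by limma voom (0.82, adjusted p = 0.0671). With the acinar score in the model, a fit that cannot separate acinar content from Px, Sstr2 was −0.80 ± 0.54 (edgeR adjusted p = 0.255).

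Galr1, a receptor for galanin, a peptide of islet nerves that inhibits insulin release (chromosome 18, 79243009 to 79258570), differed between the glucose groups of Px. It had 3.85, 3.79 and 4.22 CPM in higher-glucose Px, 0.794 to 1.42 CPM with a median of 1.03 in lower-glucose Px, and 5.97, 4.65, 3.93, 4.09 and 4.93 CPM in Sham. Every lower-glucose library lay below every library of the other groups, on 17 to 42 counts each, while higher-glucose Px overlapped Sham. The fold change was −2.11 ± 0.18 for lower-glucose Px against Sham (adjusted p = 9.64e-08) and −0.26 ± 0.22 for higher-glucose Px against Sham (adjusted p = 0.32). That second value depended on the scaling, with a fall of 1.27 ± 0.33 by library totals (adjusted p = 0.00193) and 0.14 with endocrine granule scaling, where the median of all genes was −0.96 and 0.47. All Px against Sham gave −1.29 ± 0.39 (adjusted p = 0.00837), a mean over unlike groups: it was −2.44 ± 0.25 in the first set, where all Px rats are lower-glucose, and −0.56 ± 0.38 in the second (adjusted p = 0.218). It also missed the threshold with endocrine granule scaling (−0.79, edgeR adjusted p = 0.068) and with that acinar score (−2.15, 0.0742).

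Adcy5, an adenylate cyclase that makes cAMP downstream of Gs and is inhibited through Gi (chromosome 11, 68695839 to 68842320), rose. It had 17.2, 12.9 and 14.2 CPM in higher-glucose Px, 7.38 to 13.9 CPM with a median of 10.1 in lower-glucose Px, and 4.39, 3.49, 3.45, 4.53 and 4.47 CPM in Sham. Every Px library lay above every Sham library. The log2 fold change was 1.5 ± 0.19 (adjusted p = 4.49e-06), 2.83 times the Sham level, with 1.31 ± 0.28 in the first set and 1.66 ± 0.20 in the second (adjusted p = 0.00587 and 6.29e-05).

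**Figure D3:**
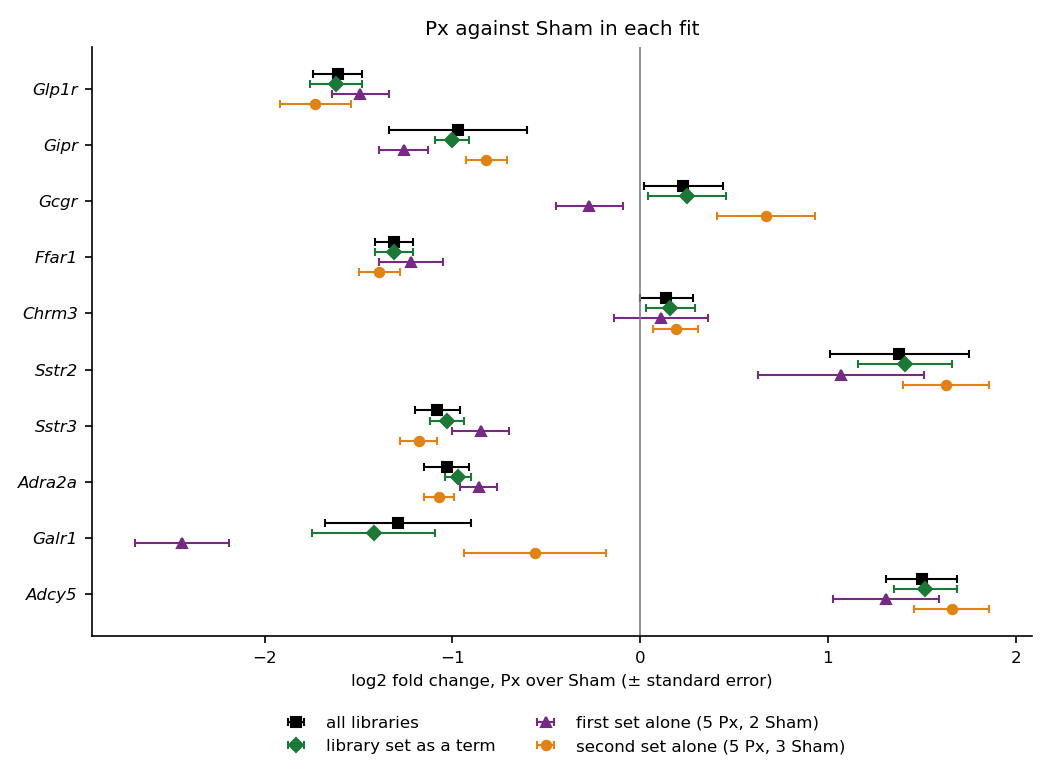
Log2 fold change of Px over Sham (x axis, ± standard error) of each member in 4 edgeR fits: all libraries, library set as a term, and each library set alone. Gipr is at −0.97 to −1.0 in the pooled fits with a narrower error once the set is a term, Gcgr changes sign between the sets, and Galr1 is at −2.44 in the first set and −0.56 in the second.

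Between higher- and lower-glucose Px, 4.88% of 15661 genes were called (515 genes or 3.29% higher, 249 or 1.59% lower, against 139 and 279 with endocrine granule scaling and 46 and 96 by library totals), and 2 of the 10 members were called: Galr1 was higher in higher-glucose Px by 1.86 ± 0.20 (adjusted p = 9.13e-05) and Glp1r was lower, at −0.55 ± 0.13 (adjusted p = 0.0198). All 3 higher-glucose libraries are in the second set. With the library set as a term, Galr1 was at 1.81 ± 0.24 (adjusted p = 0.00163), Glp1r at −0.67 ± 0.13 (0.0202) and Gcgr at 1.04 ± 0.16 (0.00469), all 3 called where 1.35% of genes were. In the second set alone, 3 against 2 libraries, these genes were called too (Galr1 1.53, Glp1r −0.70 and Gcgr 0.95, each at an edgeR adjusted p = 0.0222, where 0.874% of genes were called). The Glp1r call ended without higher-glucose replicate 13, 15 or 19 (edgeR adjusted p = 0.122, 0.0751 and 0.0666, at −0.52, −0.55 and −0.56). Gipr was at −0.95 ± 0.45 pooled (adjusted p = 0.224) but at 0.25 ± 0.13 with the set as a term. Adcy5 was at 0.54 ± 0.17 (adjusted p = 0.0825) and passed without lower-glucose replicate 8 (0.64, edgeR adjusted p = 0.0298). Cell type markers also differed between the Px groups. In higher-glucose Px 4 of 7 fibroblast markers were lower (median −1.23), and 2 of 4 delta and 1 of 2 pancreatic polypeptide markers were higher. With the set as a term these counts were 0, 1 and 0, and 1 of 8 beta cell markers was lower. Their part in the receptor differences was not tested.

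**Figure D4:**
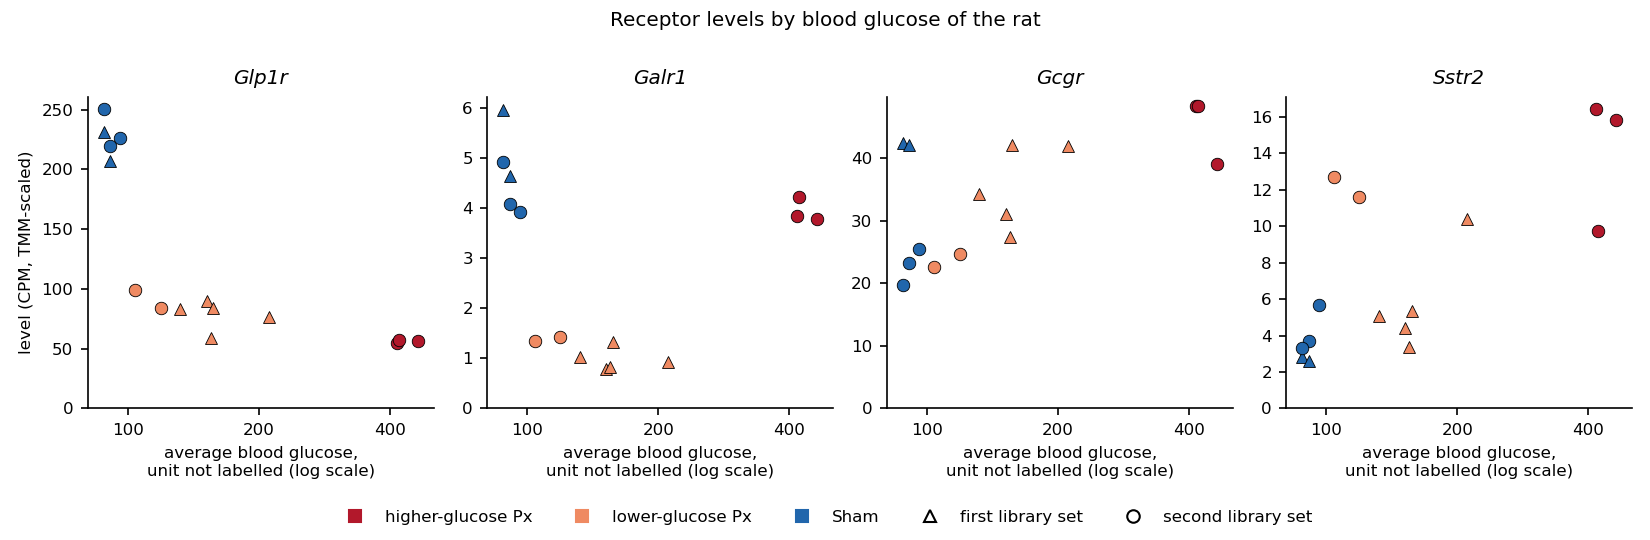
Level of Glp1r, Galr1, Gcgr and Sstr2 (y axis, CPM on TMM-scaled totals, from 0) against the rat's average blood glucose (x axis, unit not labelled, log scale); colours are groups, triangles the first and circles the second library set. Glp1r is low in all Px rats, with the 3 higher-glucose rats at 54.4 to 57.4 CPM, while Galr1 is at 0.794 to 1.42 CPM only in the 7 lower-glucose rats.

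Set against the same Sham libraries, higher-glucose Px had 2 members higher and 5 lower, where 57.7% of genes were called (5045 or 32.2% higher, 3999 or 25.5% lower, against 6986 and 1056 with endocrine granule scaling and 1865 and 9074 by library totals). Lower-glucose Px also had 2 higher and 5 lower, where 63.5% were called (5257 or 33.6% higher, 4692 or 30% lower, against 10025 and 624 with endocrine granule scaling and 3089 and 7138 by library totals). Gipr was called in higher-glucose Px (−1.70 ± 0.49, adjusted p = 0.0074) and not in lower-glucose Px (−0.75 ± 0.36, 0.082), but with the library set as a term it was called in both (−0.84 ± 0.13 in higher-glucose and −1.09 ± 0.10 in lower-glucose Px, edgeR adjusted p of 6.05e-05 or below, where 59.5% of genes were called in higher-glucose and 66.1% in lower-glucose Px). Without Sham replicate 25, 26 or 27 it also passed in lower-glucose Px (edgeR adjusted p = 0.0414, 0.0399 and 0.0498). Glp1r was at −2.02 ± 0.14 in higher-glucose and −1.47 ± 0.10 in lower-glucose Px, and Ffar1 at −1.45 ± 0.14 in higher-glucose and −1.26 ± 0.11 in lower-glucose Px. Sstr2 was at 1.94 ± 0.40 in higher-glucose and 1.04 ± 0.34 in lower-glucose Px, and Adcy5 at 1.85 ± 0.19 in higher-glucose and 1.31 ± 0.16 in lower-glucose Px. The differences between the Px groups for Ffar1 (−0.19 ± 0.13, adjusted p = 0.393) and Sstr2 (0.90 ± 0.36, 0.158) did not pass. Within the 7 lower-glucose rats, 0 members had a called slope on log2 glucose, with slopes from −0.57 to 1.47 log2 units per doubling. At an unadjusted p below 0.05 there were 2 members by edgeR, 2 by DESeq2 and 2 by limma voom, and 9.28% of 13752 genes by edgeR. The lowest glucose values, 104 and 119, belong to replicates 14 and 16, the second-set libraries of this group, so slope and library set are entangled. Gipr, at 1.47, came to −0.15 with the set as a term and −0.03 in the first set alone. Sstr2 went from −0.52 to 1.66 and 1.81 in those fits, which also called 0 members.

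Scaled by exon length (CPM per kilobase), the order of mean levels in Sham was Ffar1 (73.5 ± 5.04), Glp1r (67.4 ± 4.89), Gipr (66.7 ± 44.3), Adra2a (37.0 ± 7.78), Sstr3 (17.8 ± 3.69), Gcgr (15.9 ± 5.63), Chrm3 (7.08 ± 0.628), Galr1 (2.09 ± 0.361), Sstr2 (1.73 ± 0.592) and Adcy5 (0.838 ± 0.113). Neighbours from Ffar1 to Adra2a overlapped in range, as did Sstr3 with Gcgr and Galr1 with Sstr2. The place of Gipr held in neither library set. In first-set Sham it averaged 115, above Ffar1 (69.8) and Glp1r (65), and in second-set Sham 34.7, below Ffar1 (76), Glp1r (69.1) and Adra2a (42.6). In Px Gipr averaged 34.1 ± 15.4, Ffar1 29.7 ± 4.54, Glp1r 22.1 ± 4.84, Gcgr 18.7 ± 4.89 and Adra2a 18.2 ± 2.68 CPM per kilobase. The first place of Gipr there came from the first set, where it averaged 48.3, against 19.8 in the second set, below Ffar1 (29.2) and Glp1r (21). Sstr3 (8.39 ± 1.19), Chrm3 (7.83 ± 1.58), Sstr2 (4.54 ± 2.28) and Galr1 (0.867 ± 0.622) were lower. By this scale the mean level of Gcgr was 0.846 times that of Glp1r in Px and 0.236 times in Sham. Adcy5 had 2.38 ± 0.634 in Px and 0.838 ± 0.113 in Sham, so in both groups it stayed far below the class B receptors.

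**Figure D5:**
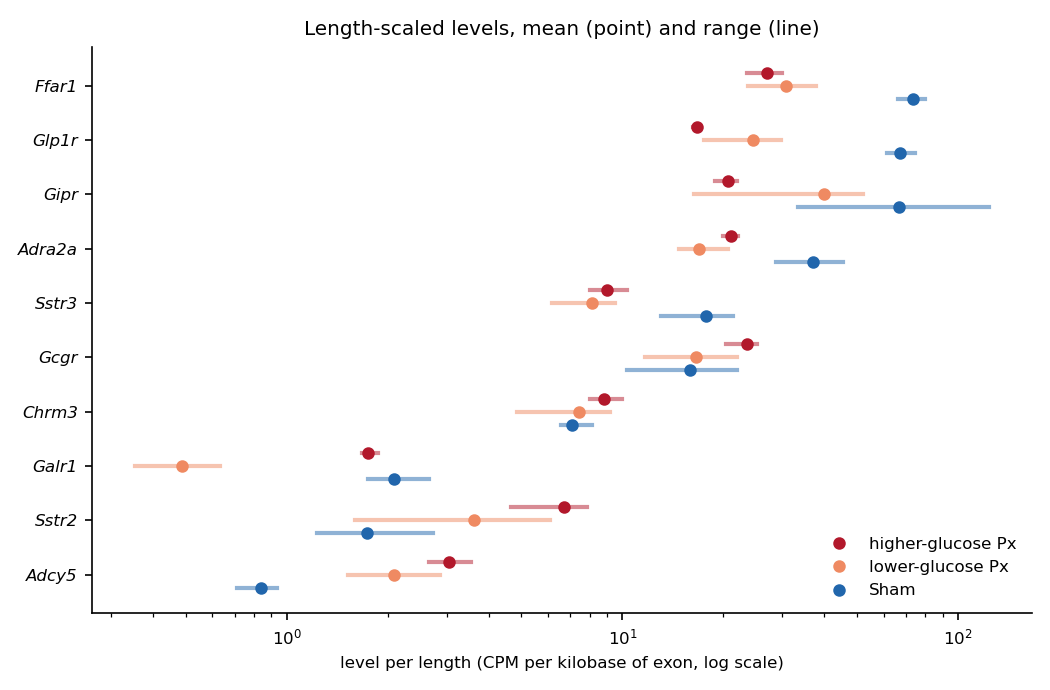
Mean (point) and range (line) of the level per length (x axis, CPM per kilobase of exon, log scale) of each member in higher-glucose Px (3 libraries), lower-glucose Px (7) and Sham (5). Ffar1, Glp1r and Gipr have pooled Sham means of 66.7 to 73.5, that of Gipr over sets at 115 and 34.7, and Adcy5, lowest there at 0.838, is above Galr1 in both Px groups.

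Close relatives of the members, looked up after the members' values were seen, moved in both directions. Sstr5, a further somatostatin receptor of beta cells, had 1.31 ± 0.747 CPM in Px and 7.58 ± 1.28 CPM in Sham (−2.51 ± 0.35, edgeR adjusted p = 9.11e-06), falling as Sstr3 did while Sstr2 rose. Sstr1 was at 0.41 ± 0.32 and did not pass. Among cyclases, Adcy8, a calcium-activated form, fell by 2.18 ± 0.25, Adcy9 by 0.78 ± 0.13 and Adcy1 by 0.71 ± 0.23, whereas Adcy2 (1.23 ± 0.22), Adcy3 (1.73 ± 0.14), Adcy4 (1.94 ± 0.24) and Adcy7 (3.87 ± 0.41) rose with Adcy5. Adcy6 had the most CPM of them, 160 ± 19.8 in Px and 197 ± 17.4 in Sham (−0.30 ± 0.09, and 0.26 with endocrine granule scaling). The fatty acid receptors Ffar2 (−1.11 ± 0.23) and Ffar3 (−1.30 ± 0.10) fell with Ffar1, while Ffar4 did not pass (−0.54 ± 0.27, edgeR adjusted p = 0.0934). Adra2b, a relative of Adra2a, did not pass either (−0.41 ± 0.25, edgeR adjusted p = 0.157). The muscarinic receptors Chrm2 (−1.55 ± 0.30) and Chrm4 (−1.47 ± 0.31) fell where Chrm3 did not pass. They rest on low counts, 3 to 30 per library for Chrm2 and 8 to 55 for Chrm4. Counts were low in some libraries for Sstr5 (5 to 216) and Adcy8 (11 to 194) too. The edgeR adjusted p of each relative said to rise or fall was 0.0116 or below. With endocrine granule scaling Adcy9 (−0.19, edgeR adjusted p = 0.186), Adcy1 (−0.14, 0.563) and Ffar2 (−0.46, 0.171) did not pass, nor did Adcy2 by library totals (0.65, 0.107), or Chrm2 (−1.07, 0.164) and Ffar2 (−0.60, 0.337) with the acinar score. Adcy7 is abundant in blood-derived cells, and macrophage markers took 0.0343% to 0.425% of counts in Px and 0.00415% to 0.00777% in Sham. Their part in the result was not tested.

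The rest of the pathway moved both ways. Of 41 tested genes of cAMP signalling (44 listed), 12 rose and 19 fell, with a median log2 fold change of −0.24 against 0.02 over all genes. These and the list counts that follow are read against 34.5% higher and 30.2% lower over all genes. Rapgef4, which encodes the cAMP sensor EPAC2 (−1.17 ± 0.10), Pde3b, a phosphodiesterase that breaks down cAMP (−1.02 ± 0.09), and Crtc1, a coactivator of CREB (−1.15 ± 0.12), fell. Adcy3, Adcy7 and Pde1a, a calcium-regulated phosphodiesterase (2.78 ± 0.32), rose. Of 31 genes of Gq and Gi signalling 7 rose and 11 fell (median −0.16), among them Gng4, a G-protein gamma subunit, from 46.7 to 72.0 CPM in Px and 167 to 238 CPM in Sham (−1.72 ± 0.11). Of 25 receptor regulators 12 rose and 7 fell (median 0.54). Arrb1, an arrestin that desensitises receptors, rose by 2.61 ± 0.20, and the receptor kinases Grk5 (−1.12 ± 0.10) and Grk3 (−1.21 ± 0.13) fell. Each gene named for these lists had an edgeR adjusted p of 1.7e-06 or below.

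Of 48 tested other islet receptors of this class (76 listed), 19 rose and 17 fell (median −0.03). P2ry1, an ATP and ADP receptor, had 50.2 ± 12.0 CPM in Px and 189 ± 30.4 CPM in Sham (−1.91 ± 0.15), and Adora1, a Gi-coupled adenosine receptor, 13 ± 2.49 CPM in Px and 44.0 ± 8.08 CPM in Sham (−1.76 ± 0.14). Sctr, the secretin receptor, which duct and acinar cells carry, rose to 57.1 ± 17.7 CPM in Px, against 6.29 ± 4.13 CPM in Sham (3.18 ± 0.37). The acinar and duct markers moved with it. With the acinar score in the model Sctr was at 2.35 (edgeR adjusted p = 0.00493), and the part of duct cells was not tested. Of 11 tested ligands 4 rose and 1 fell (median −0.56). Ucn3, a beta cell peptide, fell by 1.71 ± 0.15. Penk, the enkephalin precursor, rose by 4.14 ± 0.51, with 1.80 to 12.9 CPM in Px and 0.115 to 0.831 CPM in Sham. Ucn3, Penk, P2ry1, Adora1 and Sctr each had an edgeR adjusted p of 2.68e-06 or below. Gal, the galanin precursor and so the ligand gene of Galr1, had 0.159 to 5.65 CPM in Px and 0 to 0.175 CPM in Sham (4.78 ± 0.94, edgeR adjusted p = 0.00028). It did not pass with the acinar score in the model (1.58, edgeR adjusted p = 0.38).

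Genes whose pattern over the 15 libraries was most like 3 of the members were ranked by the root mean square difference of gene-centred log2 CPM among 9759 candidates. Closest to Glp1r were Lrrn1 (0.122), Wnt4 (0.136), Syt17 (0.146) and Gng4 (0.171), where the median candidate differed by 0.804. Closest to Ffar1 were Ptch1 (0.129), Slc7a2 (0.13), Myh10 (0.137) and Ogdhl (0.139), with a median of 0.644. Closest to Adcy5 were Crim1 (0.187), Pdzd2 (0.2), Itga7 (0.223) and Klf4 (0.235), with a median of 0.85. Wnt4, a secreted signal, had 107 ± 17.9 CPM in Px and 337 ± 50.7 CPM in Sham. Ptch1, the Hedgehog receptor, had 31.2 ± 3.06 CPM in Px and 78.3 ± 10.8 CPM in Sham, and Crim1 had 22.5 ± 6.21 CPM in Px and 8.95 ± 1.54 CPM in Sham.

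In the authors' deposited table, Px relative to Sham, the member log2 fold changes lay within 0.33 of the edgeR values, and Glp1r stood at −1.64 and Adcy5 at 1.45. The authors' deposited table gave Gipr −0.87 with an adjusted p of 0.0556, on the other side of 0.05 from the edgeR value, and Galr1 −1.61 with 0.00041.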

How the data were processed

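Polyadenylated RNA of isolated islets was sequenced, with RNA taken by a miRNeasy kit and libraries by a directional kit given as Wafergreen Directional, per the labels. Raw read counts of 28914 genes, with exon positions and lengths, were deposited, per the file headers. FastQC, Subread, featureCounts and limma are the tools of the authors named in the submitters' processing notes, with no versions. The sources used here do not give the genome build, annotation or strand setting. The authors' deposited comparison table lists, per the file headers, each gene's log2 fold change, the same fold change as a ratio, and its p-value, raw and adjusted. It was used only where it is named.

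Groups came from the labels, with the Px rats parted at a glucose of 300. In R 4.3.3, edgeR 4.0.16 kept genes by filterByExpr (a count of at least 10, 15 in total), scaled libraries by TMM and gave two-sided tests (glmQLFit, glmQLFTest), adjusted over all genes by Benjamini-Hochberg with a threshold of 0.05. The comparison of all Px with Sham used 2 groups. A 3-group model gave the remaining group comparisons, and the 7 lower-glucose Px libraries gave the slope. Standard errors are the absolute log2 fold change over the square root of the F statistic. CPM is the count per M reads on TMM-scaled totals, and levels per kilobase divide it by the deposited exon length. Likeness used log2 CPM with a prior count of 2, genes of at least 5 CPM on average. The exact permutation tests ran over all 3003 splits. Fits were tested on simulated counts.

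All 10 members are named. From each gene list up to 3 rising and 3 falling genes by smallest p could be named, among those called with a mean of at least 1 CPM, and the 4 genes most like Glp1r, Ffar1 and Adcy5. Some are left out for length. The members, lists and tests were chosen with earlier results of these data known. The library sets were parted after seeing the data, at the largest gap of 17 splicing-related genes within Px and within Sham, and the fits with them were added then. Alternatives were other scalings and filters, DESeq2 1.42.0, limma 3.58.1 (voom), an acinar score (mean log2 CPM of its 15 markers) added to the model, and omission of each library in turn. No member shared exon bases with another gene of the table. Promoters were matched by symbol, and their GRCr8 positions are not those of the count table. Totals of 12.2 to 33.4 M counts set the precision, and counts of 17 to 113 per library limit it for Galr1.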

Additional observations from a re-analysis of the deposited data

Results flagged for a closer look

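Galr1 and Glp1r differed between higher- and lower-glucose Px, 2 groups set against the same Sham libraries, by the direct edgeR test of that difference. Galr1 was higher by 1.86 ± 0.20 on the log2 scale (adjusted p = 9.13e-05), with 3.79 to 4.22 CPM in all 3 higher-glucose libraries and 0.794 to 1.42 CPM in all 7 lower-glucose libraries. The difference was 1.53 ± 0.24 (edgeR adjusted p = 0.0222) in the second library set alone, which rests on 2 lower-glucose libraries, and 1.40 (0.0271) to 1.93 over scalings and left-out libraries. Glp1r was at −0.55 ± 0.13 (edgeR adjusted p = 0.0198), with 54.4 to 57.4 CPM in the 3 higher-glucose libraries and 58.8 to 99.5 CPM in the 7 lower-glucose libraries. The endocrine granule genes themselves gave 3 higher and 0 lower of 8 in this comparison, and with scaling by them Glp1r was at −0.77 ± 0.15 (edgeR adjusted p = 0.00913). Its call ended without higher-glucose replicate 13, 15 or 19 (edgeR adjusted p = 0.122, 0.0751 and 0.0666). A gap rule for a single outlying library flagged none in the 30 groups of member values looked at (Sham, lower-glucose Px and all Px). That rule can miss libraries that lie apart together. Gipr in Sham was such a case, with 335 and 285 CPM in replicates 23 and 24 against 90.3 to 99.1 CPM in the others.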

How the results depend on the processing

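No paired analysis was possible because the rat numbers in the labels differ between Px and Sham and mark single animals. The falls of Glp1r, Ffar1, Sstr3 and Adra2a and the rise of Adcy5 in all Px against Sham were called under all alternatives run, but their size moved with the scaling. With endocrine granule scaling Glp1r was −1.01, Ffar1 −0.71, Sstr3 −0.49, Adra2a −0.43 and Adcy5 2.09, and by library totals −2.23, −1.95, −1.74, −1.69 and 0.82, where the median of all genes was 0.61 and −0.62. Where a sign turned, the cause was not tested.

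By library totals, all Px, lower- and higher-glucose Px against Sham gave −0.53, −0.47 and −0.70 for Chrm3 and −0.46, −0.44 and −0.48 for Gcgr. With the acinar score as a covariate they gave −0.41, −0.40 and −0.23 for Chrm3, 0.99, 0.89 and 0.36 for Gipr, −0.80, −0.74 and −0.11 for Sstr2, and 6066, 6479 and 4348 genes called (9838, 9949 and 9044 without it). The 2 members called higher in each became 1 with the acinar score and 4 with endocrine granule scaling, and in lower-glucose Px 1 by library totals and 1 by limma voom. In the first library set alone 1 was called higher. Gcgr in lower-glucose Px was −0.13 with the library set as a term and −0.27 in the first set, the value also of all Px there. Galr1 in higher-glucose Px was 0.14 with endocrine granule scaling. Gipr in all Px missed the threshold by limma voom (−0.87, adjusted p = 0.0556).

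Between higher- and lower-glucose Px, library totals gave −0.16 for Adra2a, −0.24 for Chrm3, −0.04 for Gcgr and −0.33 for Sstr3, which was −0.06 with endocrine granule scaling, −0.12 with the library set as a term and −0.0022 in the second set. Gipr was 0.25 with the set as a term and 0.15 in the second set. The number of genes called was 764, against 142 by library totals, 418 with endocrine granule scaling, 1363 by DESeq2, 479 with the acinar score, 212 with the set as a term and 133 in the second set. The last 2 of these fits each called 2 members higher. The slope called 0 genes, 1 without a filter and 121 by DESeq2.

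Leaving out each library in turn gave 270 to 983 genes called between the Px groups, with 270 without Px replicate 13, 378 without 15, 384 without 19 and 468 without 2, 1 to 2 members higher and 0 to 1 lower. In lower-glucose Px against Sham, Chrm3 came to −0.001 without Px replicate 11, and Gcgr lay between −0.06 and 0.21, below 0 without Px replicate 10 or 11 or Sham replicate 26 or 27. Low counts limit Galr1 and Sstr2, and among the relatives Chrm2 and Chrm4, and in some libraries Sstr5 and Adcy8.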
